A study of Homo sapiens with 6 samples.

Results

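The amino acid transporter genes of 7 solute carrier families, SLC1, SLC3, SLC6, SLC7, SLC36, SLC38 and SLC43, were examined in A549 cells, a human lung adenocarcinoma line. They were taken as every row of the count table whose symbol began with a member name of those families, which gave 60 of 19470 symbols. Of these, 59 are transporter genes, and SLC7A6OS is a gene on the strand opposite SLC7A6 that encodes no transporter and is given apart. RefSeq for GRCh38.p14 lists all 60. The activated group was 3 libraries of wild-type A549 cells treated with medium conditioned by osteoclasts, the cells that resorb bone, and carried the tag OC. The dormant group was 3 libraries of wild-type A549 cells treated to induce dormancy, and carried the tag SF. The study set out to find the genes that separate the activated from the dormant state. The labels do not say how dormancy was brought about, which base medium each group had or what the tags stand for, so effects of medium and of activation cannot be told apart. A549 is a single cell line. Nor do they say whether replicate libraries were grown as separate cultures, so the p-values reflect only library-to-library spread, part or all of which may be technical.

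Amino acid transporters set which amino acids a cell takes up, exchanges and releases from its lysosomes. Many work as exchangers: SLC7A5 imports leucine while exporting glutamine that SLC1A5 or the SLC38 carriers brought in, and SLC7A11 imports cystine for glutathione while exporting glutamate. Several SLC7 proteins reach the plasma membrane only when bound to the heavy chain SLC3A2, also called CD98. In cells short of amino acids or under stress of the endoplasmic reticulum, the transcription factor ATF4 induces a group of these genes, and the kinase complex mTORC1 reads amino acids at the lysosome, where SLC38A9 acts as an arginine sensor.

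Total counts lay between 34128471 and 36667725 per library. Levels are given as CPM (counts scaled to library size with TMM factors) for a given gene across libraries, or as the authors' FPKM, which also divide by gene length, for comparisons between genes. TMM factors, which correct for differences in RNA composition, were 0.952 to 0.954 in activated and 1.04 to 1.06 in dormant libraries and thus moved with the group. Scaling by total counts instead shifted log2 fold changes by -0.14 over all genes, and the deposited FPKM carry that scaling. Across genes, log2 CPM correlated at 0.989 to 0.991 among activated libraries, 0.992 among dormant libraries and 0.911 to 0.915 between groups. Among 6 epithelial markers, summed levels were 7432 to 8369 CPM in activated and 4983 to 5675 CPM in dormant libraries, mostly from keratins, while EPCAM was near absent, at 0.611 CPM in activated and 1.28 CPM in dormant cells. In edgeR at an adjusted p under 0.05, CDH1, KRT8 and KRT18 rose, KRT7 and EPCAM fell and KRT19 did not pass (37.2% of all genes fell and 36.5% rose). KRT7 had 1929 CPM in activated and 2165 CPM in dormant cells. Without activated replicate 2, 3 rose and 0 fell. Of 11 osteoclast markers, CALCR, DCSTAMP, OCSTAMP and TYROBP had no counts in any library. The list summed to 22.9 to 24.8 CPM in activated and 53.2 to 54.9 CPM in dormant libraries. Of 7 tested in edgeR at an adjusted p under 0.05, 4 fell, 1 rose and 2 did not pass (37.2% of all genes fell and 36.5% rose). ATP6V0D2 had 0.0707 CPM in activated and 19.3 CPM in dormant cells, and NFATC1 9.04 CPM in activated and 16.4 CPM in dormant cells. MMP9 rose, with 0.770 CPM in activated and 0.143 CPM in dormant cells. MMP9 reached the count minimum of the test in the activated group alone, and ACP5, ATP6V0D2 and OSCAR in the dormant group alone. Of 12 myeloid markers, AIF1, C1QA, C1QB and C1QC had no counts, PTPRC had 0.0508 CPM in activated and 0.00932 CPM in dormant cells, and the list summed to 166 to 174 CPM in activated and 136 to 148 CPM in dormant libraries. CD68 made up most of that sum, at 152 CPM in activated and 135 CPM in dormant cells. Of 6 tested, 5 rose (4 with total counts) and 1 fell, beside the same shares of all genes. Log2 fold changes were 3.07 for CD14, 3.07 for CSF1R, 3.22 for LAPTM5, 0.79 for ITGAM, 0.17 for CD68 and -6.68 for LST1. CSF1R and LAPTM5 reached the count minimum in the activated group alone, and LST1 in the dormant group alone. The part of such cells or of library composition in the results below was not tested.

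Activated cells had lower transcript levels of 7 of the 10 most abundant amino acid transporters. The FPKM of all 60 members summed to 705, 696 and 703 in activated libraries, against 1368, 1389 and 1400 in dormant libraries. The sums did not overlap and averaged 702 ± 4.62 in activated and 1386 ± 15.9 in dormant cells (SD, n = 3 each), 1.97-fold lower in activated cells (exact two-sided permutation test, p = 0.1, the smallest that 3 against 3 libraries can give). Much of this difference lay in SLC3A2 and SLC7A5. SLC3A2 had 119 FPKM in activated and 401 FPKM in dormant cells. SLC7A5 had 141 FPKM in activated and 375 FPKM in dormant cells. The sum without them was not taken, so its fold does not describe the other members. The 10 members with the highest mean FPKM over all libraries held 88.0% of the sum in activated and 92.6% in dormant cells, and 7 of these fell while 3 rose, SLC38A2 among the 3 but not with total counts. Of all genes tested, 37.2% fell and 36.5% rose, and the counts among the 10 were not tested against these shares. The calls used TMM, while the sum and the ranking used FPKM, whose scaling shifted log2 fold changes by -0.14. In bulk RNA, fewer cells of a kind and less RNA per cell cannot be told apart.

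Of the 60 members, 15 had no counts in any library, 10 more had too few to be tested and 35 were tested, 34 of them transporter genes. At an adjusted p under 0.05 in edgeR's quasi-likelihood test, 25 of the 35 (71.4%) differed between groups, against 73.7% of all 13336 genes tested, a share near that background. In activated cells 10 members rose (28.6%, against 36.5% of all genes) and 15 fell (42.9%, against 37.2%). By at least 2-fold, 13 changed (37.1%, against 22.2%), of which 4 rose (11.4%, against 11.2%) and 9 fell (25.7%, against 11%), and no test of these shares was made. The libraries of the groups did not overlap for 25 of 35 members, against 76.5% of all genes. The median log2 fold change was -0.08 over the tested members and -0.02 over all genes. With total counts, 8 members rose and 16 fell, beside 3941 and 5998 of all genes, where TMM gave 4868 and 4962. SLC6A14 reached the count minimum in every library of the activated group alone, and SLC43A3, SLC6A3, SLC6A13 and SLC7A9 in every library of the dormant group alone. The direction of any change called in them is thus not independent of the filter. By at least 2-fold, SLC6A14 is among the 4 that rose, and SLC6A3, SLC6A13 and SLC7A9 are among the 9 that fell.

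**Figure D1:**
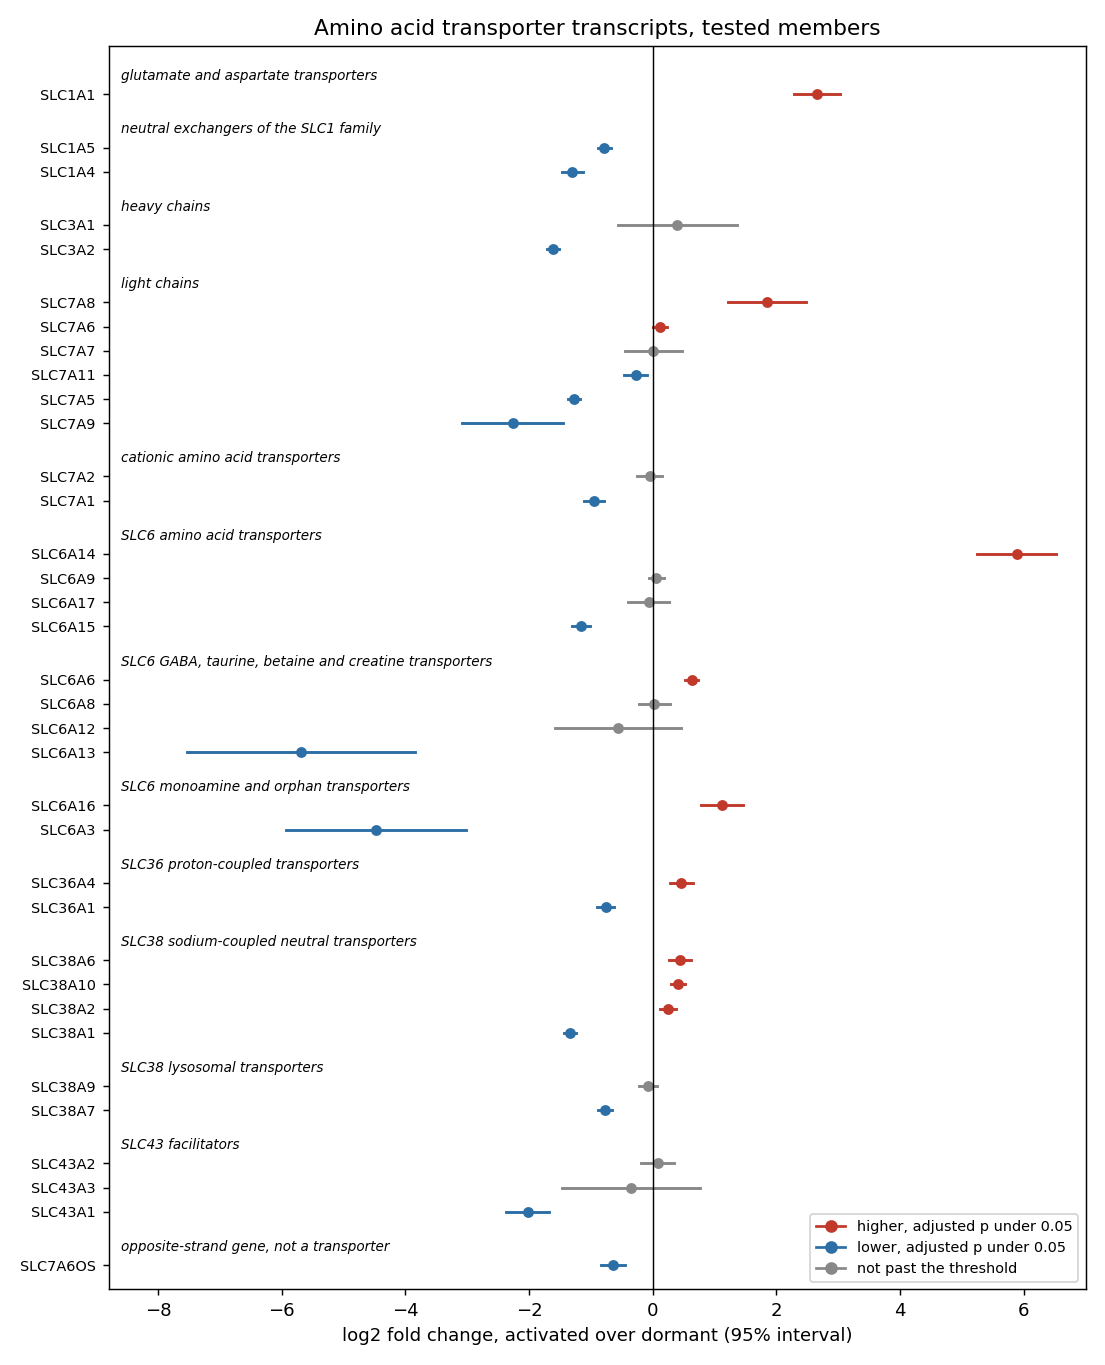
Log2 fold changes of the 35 tested members, activated over dormant (x axis), by role, with 95% intervals from edgeR's quasi-likelihood fit (3 libraries per group). Points in red rose and points in blue fell at an adjusted p under 0.05, and grey points did not pass; SLC6A14 stands farthest right at 5.89, and SLC3A2, SLC7A5, SLC38A1 and SLC43A1 lie left of zero, while SLC7A6 turned slightly negative with total counts.

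The heavy chain SLC3A2 (chromosome 11, 62856109 to 62888860), which carries its light chains to the membrane, had 312, 302 and 301 CPM in activated libraries, against 910.1, 952 and 932 CPM in dormant libraries. All activated libraries lay far below all dormant ones, and the transcript fell 3.05-fold (log2 fold change -1.61 ± 0.05 SE, adjusted p = 4.51e-13). SLC7A5 (chromosome 16, 87830023 to 87869507), which with SLC3A2 forms the large neutral amino acid transporter LAT1, had 802, 765 and 806 CPM in activated libraries, against 1930.1, 1852 and 1959 CPM in dormant libraries. The groups were again far apart, and SLC7A5 fell 2.42-fold (log2 fold change -1.27 ± 0.05 SE, adjusted p = 5.56e-12). Its value is uncertain to the extent that reads were shared with partial pseudogene copies. These were the members with the highest FPKM in both states: SLC7A5 had 141 ± 3.88 FPKM in activated and 375 ± 8.40 FPKM in dormant cells and SLC3A2 119 ± 2.34 FPKM in activated and 401 ± 12.9 FPKM in dormant cells. Their order differed between the states, with SLC7A5 above SLC3A2 in each activated library and SLC3A2 above SLC7A5 in each dormant library.

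Per SLC3A2, SLC7A5 had an FPKM ratio of 1.17, 1.15 and 1.22 in activated libraries, against 0.966, 0.885 and 0.957 in dormant libraries. Library scaling cancels in such a ratio, and the groups did not overlap (1.26-fold higher in activated cells, exact permutation test, p = 0.1, the smallest possible). SLC7A11 (chromosome 4, 138164097 to 138242349), the cystine and glutamate exchanger that also needs SLC3A2, had 141, 199 and 167 CPM in activated libraries, against 202, 201 and 212 CPM in dormant libraries. It was lowest in activated replicate 1, the groups did not overlap, and the transcript fell by a small amount (log2 fold change -0.27 ± 0.09 SE, adjusted p = 0.0120), a call that missed the threshold without dormant replicate 3 (adjusted p = 0.0506) and after a correction for gene length (adjusted p = 0.0681). The FPKM ratio of SLC7A11 to SLC3A2 was 0.113, 0.165 and 0.139 in activated libraries, against 0.0556, 0.0528 and 0.0569 in dormant libraries. This ratio was thus 2.53-fold higher in activated cells without overlap (exact permutation test, p = 0.1, the smallest possible).

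The other light chains of SLC3A2 were less abundant. SLC7A8, which forms the neutral exchanger LAT2, had 3.45, 4.09 and 5.33 CPM in activated libraries, against 0.721, 1.21 and 1.65 CPM in dormant libraries, low in both states. Its groups did not overlap, and it rose 3.59-fold (log2 fold change 1.85 ± 0.30 SE, adjusted p = 5.11e-05). SLC7A6, the y+LAT2 exchanger of cationic and neutral amino acids, had 90.5, 87.1 and 85.6 CPM in activated libraries, against 78.5, 83.8 and 79.3 CPM in dormant libraries. The groups did not overlap, but the difference was small (log2 fold change 0.12 ± 0.05 SE, adjusted p = 0.0457). It missed the threshold under most alternatives, among them leaving out activated replicate 1 or 3 or dormant replicate 1 or 3 (adjusted p = 0.0563 to 0.129), and it was -0.02 with total counts. In GENCODE v29, 44.4% of the exon bases of SLC7A6 are shared with SLC7A6OS on the opposite strand, whose CPM were 20.5, 20.4 and 21.4 in activated and 29.3, 37.04 and 31.1 in dormant libraries, a fall (log2 fold change -0.64 ± 0.09 SE, adjusted p = 1.18e-05). Since counting by strand is not stated, reads of this pair cannot be told apart in their overlap. SLC7A7, the y+LAT1 exchanger, had 6.31, 5.50 and 3.35 CPM in activated libraries, against 4.46, 5.89 and 4.70 CPM in dormant libraries, with overlapping groups (log2 fold change 0.01 ± 0.22 SE, adjusted p = 0.963, 95% interval -0.46 to 0.48). SLC7A10 had no counts.

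Within the summed FPKM of the SLC3A2 light chains, SLC7A5 made up 81.5% ± 1.66 in activated and 91.0% ± 0.340 in dormant cells (SD, n = 3 each). SLC7A11 made up 9.60% ± 1.70 in activated and 5.36% ± 0.0906 in dormant cells, and SLC7A6 7.15% ± 0.241 in activated and 3.03% ± 0.183 in dormant cells. For SLC7A7 the shares were 1.19% ± 0.368 in activated and 0.548% ± 0.0977 in dormant cells, and for SLC7A8 0.508% ± 0.109 in activated and 0.0651% ± 0.0246 in dormant cells. None of the 5 shares overlapped between groups, and each had p = 0.1 in an exact two-sided permutation test, adjusted p = 0.1 over the 5, the smallest possible. As shares of one sum, they are not independent of each other.

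**Figure D2:**
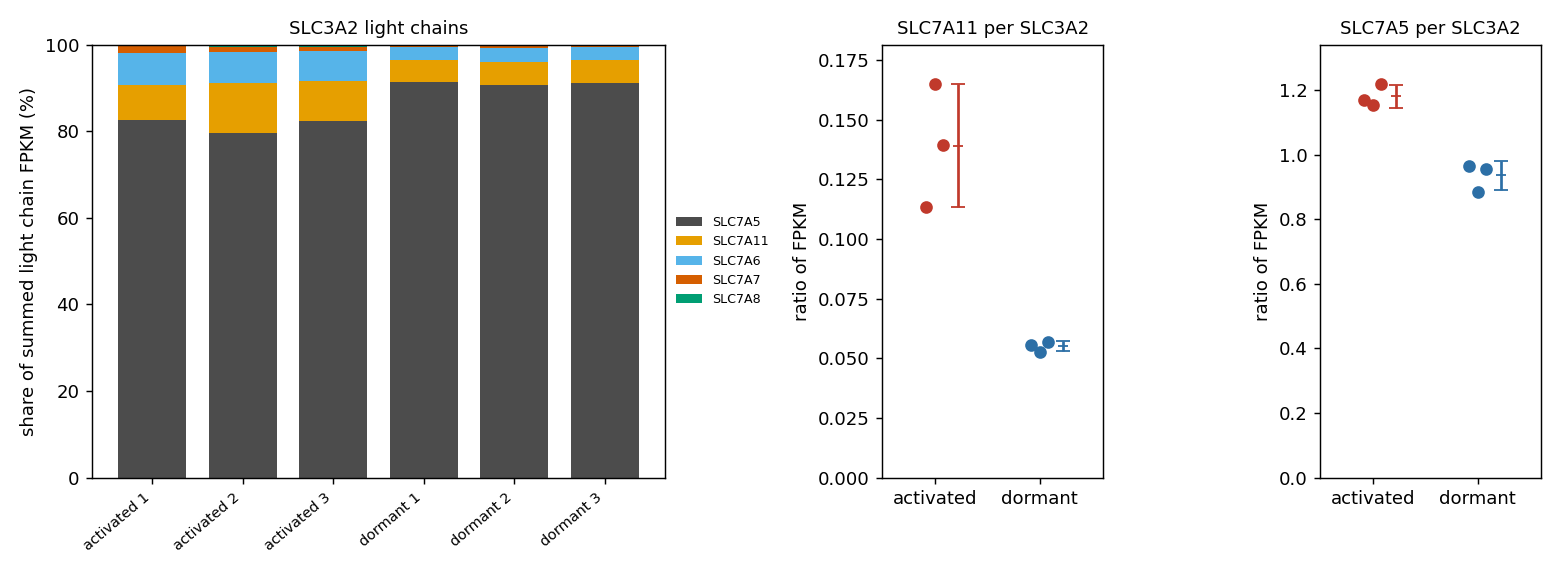
Left, share of each light chain in the summed FPKM of the SLC3A2 light chains (y axis, percent) in each of 6 libraries, activated on the left; SLC7A5 takes 79.6% to 82.7% in activated and 90.6% to 91.3% in dormant libraries. Right, FPKM ratios of SLC7A11 and SLC7A5 to SLC3A2, a point for each library with mean ± SD beside it; for both ratios every activated library is above every dormant one.

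The second heavy chain, SLC3A1, pairs with SLC7A9 in the cystine and cationic amino acid transporter of kidney and gut. SLC3A1 had 59 activated and 49 dormant counts and did not pass (log2 fold change 0.40 ± 0.45 SE, adjusted p = 0.430). SLC7A9 had 0.409, 0.346 and 0.274 CPM in activated libraries, against 1.55, 2.01 and 1.43 CPM in dormant libraries, with no overlap, and fell 4.80-fold (log2 fold change -2.26 ± 0.38 SE, adjusted p = 7.81e-05). It was counted mainly in dormant libraries and was low in both states.

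SLC7A1 (chromosome 13, 29509414 to 29595688), the main carrier of arginine and lysine in most cells, had 133, 159.5 and 159.6 CPM in activated libraries, against 303, 261 and 306 CPM in dormant libraries. Every activated library was below every dormant one, a 1.92-fold fall (log2 fold change -0.94 ± 0.08 SE, adjusted p = 2.85e-08). SLC7A2, a related cationic carrier, did not pass (log2 fold change -0.05 ± 0.09 SE, adjusted p = 0.656), with means of 46.6 CPM in activated and 48.1 CPM in dormant cells. SLC7A3, SLC7A4 and SLC7A14 had no counts.

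In the SLC1 family, both neutral exchangers fell and the glutamate carrier SLC1A1 rose. SLC1A5 (chromosome 19, 46774883 to 46788594), the glutamine carrier ASCT2, had 299, 319.6 and 314 CPM in activated libraries, against 544, 515 and 545 CPM in dormant libraries. The groups did not overlap, and SLC1A5 fell 1.72-fold (log2 fold change -0.78 ± 0.05 SE, adjusted p = 1.76e-09); 23.4% of its exon bases are shared with an antisense gene. SLC1A4 (chromosome 2, 64988479 to 65023865), ASCT1, which carries alanine, serine and cysteine, had 18.1, 22.1 and 18.7 CPM in activated libraries, against 48.96, 47.6 and 48.96 CPM in dormant libraries, without overlap, and fell 2.47-fold (log2 fold change -1.30 ± 0.08 SE, adjusted p = 1.23e-09). The glutamate and aspartate carrier SLC1A1 (chromosome 9, 4490468 to 4587469), also called EAAT3, which takes up cysteine as well, had 11.5, 13.02 and 11.6 CPM in activated libraries, against 1.71, 2.39 and 1.59 CPM in dormant libraries. All activated libraries were above all dormant ones, and SLC1A1 rose 6.32-fold (log2 fold change 2.66 ± 0.17 SE, adjusted p = 2.94e-09). The other glutamate carriers, SLC1A2 and SLC1A3, were below the filter, and SLC1A6 and SLC1A7 had no counts, so SLC1A1 was the glutamate carrier of this family that could be tested.

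Among the SLC38 carriers, which bring in small neutral amino acids with sodium, the neighbouring genes SLC38A1 (chromosome 12, 46183063 to 46269043) and SLC38A2 (chromosome 12, 46358188 to 46372773) differed in what they did. SLC38A1 had 350.0, 348 and 346 CPM in activated libraries, against 875, 881 and 883 CPM in dormant libraries. Libraries within each state lay within a few percent of each other, and SLC38A1 fell 2.53-fold (log2 fold change -1.34 ± 0.04 SE, adjusted p = 1.66e-12). SLC38A2, which cells induce when amino acids run short, had 598, 491 and 551 CPM in activated libraries, against 466, 454 and 459 CPM in dormant libraries. Its CPM did not overlap and it rose by a small amount (log2 fold change 0.25 ± 0.06 SE, adjusted p = 0.00210), but with total counts the value was 0.11 (adjusted p = 0.115). Its FPKM did overlap, at 119, 97.7 and 109 in activated libraries, against 101, 100.4 and 100.4 in dormant libraries. The FPKM ratio of SLC38A1 to SLC38A2, chosen after their values were seen, was 0.254, 0.307 and 0.273 in activated libraries, against 0.815, 0.842 and 0.835 in dormant libraries.

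SLC38A6 and SLC38A10 rose, at log2 fold changes of 0.44 (adjusted p = 0.000215) and 0.42 (adjusted p = 4.56e-06). SLC38A10 was among the 10 most abundant members, at 36.8 ± 1.45 FPKM in activated and 30.4 ± 1.51 FPKM in dormant cells. SLC38A3, SLC38A5 and SLC38A11 were below the filter, and SLC38A4 and SLC38A8 had no counts.

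At the lysosome, SLC38A7, which exports glutamine from lysosomes, had 58.5, 59.3 and 58.2 CPM in activated libraries, against 99.3, 104 and 97.3 CPM in dormant libraries. It fell 1.71-fold without overlap (log2 fold change -0.77 ± 0.05 SE, adjusted p = 4.25e-09). SLC38A9 (chromosome 5, 55625845 to 55712335), the lysosomal arginine sensor for mTORC1, had 31.8, 32.04 and 32.7 CPM in activated libraries, against 35.3, 32.7 and 33.8 CPM in dormant libraries. The groups overlapped and the difference did not pass (log2 fold change -0.08 ± 0.07 SE, adjusted p = 0.302, 95% interval -0.22 to 0.06), although with total counts it was -0.22 (adjusted p = 0.00750). SLC36A1 (chromosome 5, 151344596 to 151556085), a proton-coupled exporter of small amino acids also known as PAT1, had 30.6, 33.8 and 30.3 CPM in activated libraries, against 54.01, 52.1 and 53.8 CPM in dormant libraries, without overlap, and fell 1.69-fold (log2 fold change -0.76 ± 0.06 SE, adjusted p = 5.11e-08). Its relative SLC36A4 went the other way, with 38.7, 30.8 and 36.7 CPM in activated libraries, against 24.6, 26.6 and 25.7 CPM in dormant libraries, also without overlap, and rose (log2 fold change 0.46 ± 0.09 SE, adjusted p = 0.000184). SLC36A2 and SLC36A3 had no counts.

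The start region of SLC36A1 is shown because it holds the letters TCACGTGA, the palindromic core of the CLEAR motif through which TFEB acts on lysosomal genes. These 60 bases on the plus strand, chr5:151447543-151447602 of GRCh38.p14 (RefSeq), end at the base before one of the gene's annotated starts, and capitals mark the letters CACGTG, the E-box that also forms the middle of the CLEAR core:
SLC36A1: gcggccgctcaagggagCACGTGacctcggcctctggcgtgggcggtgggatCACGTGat
The window from 250 bases before to 50 after each start was searched on both strands. SLC36A1 was the only member with the CLEAR core among 45 with a window, beside 1.18% of all symbols and 2.23% of tested genes. The E-box itself, which overlaps the CLEAR core, was in 8 of 27 tested members (29.6%) and 12.5% of tested genes, and none of these shares was tested. A match describes letters and does not show binding.

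The SLC43 family are facilitators of large neutral amino acids that need no sodium. SLC43A1 (chromosome 11, 57484534 to 57515702), also called LAT3, had 2.57, 4.21 and 3.38 CPM in activated libraries, against 13.2, 13.6 and 14.5 CPM in dormant libraries. Activated libraries were far lower, without overlap, and SLC43A1 fell 4.07-fold (log2 fold change -2.02 ± 0.16 SE, adjusted p = 2.82e-08). SLC43A2, or LAT4, did not pass (log2 fold change 0.08 ± 0.12 SE, adjusted p = 0.572), nor did SLC43A3, a carrier of purine bases (log2 fold change -0.36 ± 0.52 SE, adjusted p = 0.548).

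The widest changes lay in the SLC6 family, at low levels. SLC6A14 (chromosome X, 116436606 to 116461458), a concentrative carrier of neutral and cationic amino acids, had 9.91, 15.1 and 12.004 CPM in activated libraries, against 0.347, 0.154 and 0.112 CPM in dormant libraries. Every activated library was far above every dormant one. These values rest on 339, 523 and 394 activated counts, against 13, 6 and 4 dormant counts. The ratio of scaled counts was 60.2 (95% exact binomial interval 39.9 to 95.2, counting error only), and the fitted rise was 59.1-fold (log2 fold change 5.89 ± 0.30 SE, adjusted p = 1.52e-10), or 90.03-fold without dormant replicate 1. At its activated level, 2.59 ± 0.547 FPKM, it was still far below SLC7A5 per length. SLC6A15, a carrier of branched-chain amino acids and proline, had 28.1, 30.1 and 31.9 CPM in activated libraries, against 63.4, 69.5 and 68.1 CPM in dormant libraries, without overlap, and fell 2.23-fold (log2 fold change -1.16 ± 0.07 SE, adjusted p = 6.03e-10). The glycine carrier SLC6A9 had 48.4, 48.1 and 52.01 CPM in activated libraries, against 47.1, 48.3 and 47.1 CPM in dormant libraries, with overlapping groups and no call (log2 fold change 0.06 ± 0.06 SE, adjusted p = 0.373, 95% interval -0.07 to 0.18). SLC6A17, a vesicular carrier of neurons, did not pass either (log2 fold change -0.06 ± 0.15 SE, adjusted p = 0.728).

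SLC6A6 (taurine) had 286, 286 and 281 CPM in activated libraries, against 178, 193 and 181 CPM in dormant libraries, without overlap, and rose 1.55-fold (log2 fold change 0.63 ± 0.05 SE, adjusted p = 2.01e-08). Among all members it ranked 5 by FPKM in activated cells and 8 in dormant cells, at 39.6 ± 0.382 FPKM in activated and 28.2 ± 1.52 FPKM in dormant cells. The creatine carrier SLC6A8 had 15.5, 19.997 and 15.7 CPM in activated libraries, against 18.9, 15.3 and 16.2 CPM in dormant libraries, with overlapping groups (log2 fold change 0.02 ± 0.12 SE, adjusted p = 0.859, 95% interval -0.23 to 0.27), and it has a near-identical pseudogene copy. SLC6A16, an orphan of unknown substrate, had 7.66, 8.15 and 9.38 CPM in activated libraries, against 3.93, 4.24 and 3.41 CPM in dormant libraries, without overlap, and rose 2.17-fold (log2 fold change 1.12 ± 0.16 SE, adjusted p = 1.38e-05). The betaine and GABA carrier SLC6A12 did not pass (log2 fold change -0.56 ± 0.48 SE, adjusted p = 0.299).

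SLC6A13 and SLC6A3, named after their values were seen, were counted almost wholly in dormant libraries. SLC6A13, a GABA carrier, had 0, 1 and 0 activated counts, against 23, 33 and 21 dormant counts, and the ratio of dormant to activated scaled counts was 69.9 (95% interval 12.2 to 2796). Its fall passed (log2 fold change -5.69 ± 0.86 SE, adjusted p = 2.87e-05). Without activated replicate 2, which held its only activated count, the fitted fold was 197, a size that the counts do not set. The dopamine transporter SLC6A3 had 2, 0 and 2 activated counts, against 28, 34 and 44 dormant counts, a ratio of dormant to activated of 24.1 (95% interval 9.12 to 89.9), and its fall passed as well (log2 fold change -4.47 ± 0.68 SE, adjusted p = 2.89e-05). SLC6A2, SLC6A4, SLC6A7 and SLC6A11 were below the filter, with no untested member above 0.555 CPM in any library. SLC6A5, SLC6A18, SLC6A19 and SLC6A20 had no counts. For a gene with no counts, 3 counts over a group allow up to 0.0295 CPM in activated and 0.0268 CPM in dormant cells.

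**Figure D3:**
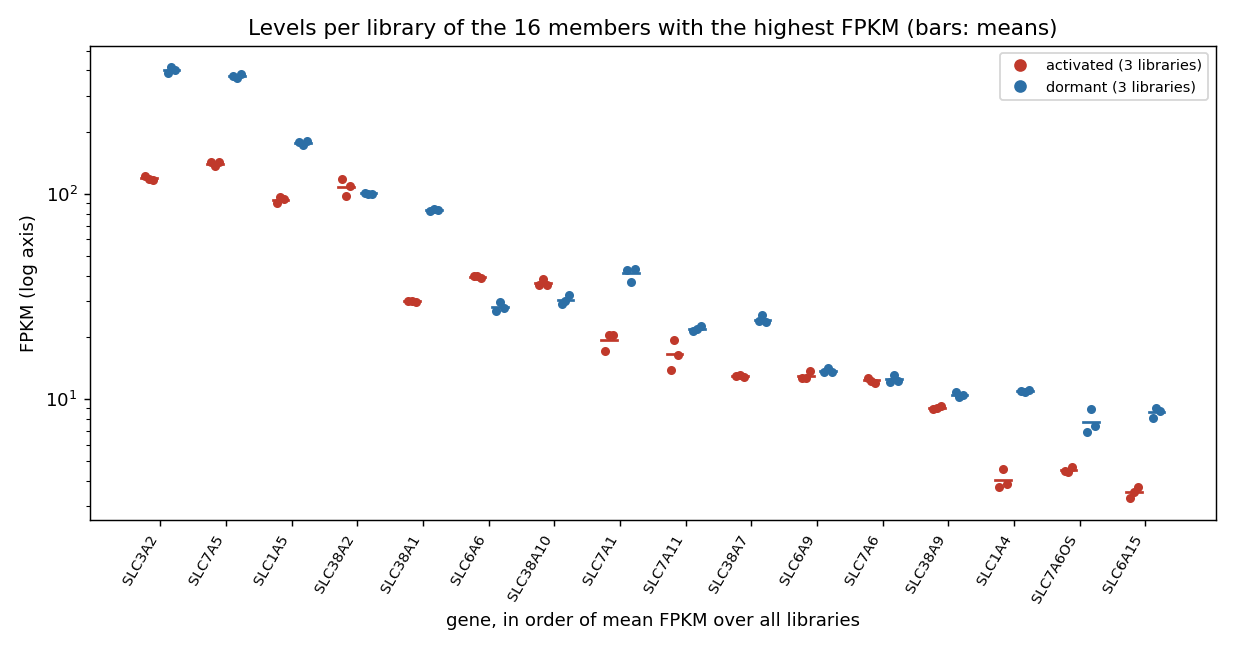
FPKM (y axis, log scale) of the members with the highest mean FPKM over all libraries (x axis), with a point for each of 3 activated (red, left) and 3 dormant (blue, right) libraries and a bar at each mean. SLC3A2, SLC7A5, SLC1A5, SLC38A1 and SLC7A1 are lower in activated cells in every library, SLC38A2 overlaps, and SLC6A6 is higher in activated cells; SLC38A10 is too, at a mean of 36.8 FPKM in activated and 30.4 FPKM in dormant cells.

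Members known as ATF4 targets were compared with the wider amino acid response. That list of 13 genes linked to ATF4 holds ATF4 itself and the kinase gene EIF2AK4, so it is not only of genes that ATF4 induces. Of 9 listed ATF4-target members, SLC7A3 had no counts and 8 were tested. SLC3A2, SLC1A4, SLC7A5, SLC7A1, SLC1A5 and SLC7A11 fell, SLC38A2 rose and SLC6A9 did not pass (37.2% of all genes fell and 36.5% rose), with the limits given above for SLC7A11 and SLC38A2. Their median log2 fold change was -0.86, against -0.02 over all genes, and their FPKM summed to 515 ± 8.21 in activated and 1142 ± 12.4 in dormant cells (SD, n = 3 each). Of 13 amino acid response genes, 10 fell, 1 rose and 2 did not pass (median log2 fold change -1.66), beside the same shares of all genes. ATF3, a stress-induced transcription factor, had 0.862 ± 0.369 CPM in activated and 72.2 ± 2.15 CPM in dormant cells (log2 fold change -6.38 ± 0.14 SE, adjusted p = 2.96e-14). DDIT3, the transcription factor CHOP, had 4.16 ± 0.659 CPM in activated and 123 ± 7.30 CPM in dormant cells (log2 fold change -4.89 ± 0.09 SE, adjusted p = 1.03e-14). VLDLR, a lipoprotein receptor, rose (log2 fold change 0.31 ± 0.06 SE, adjusted p = 0.000330), a call that ended with unfiltered log2(FPKM + 1) (adjusted p = 0.0624). Named outside the rule, ATF4 itself had 234 ± 8.34 CPM in activated and 631 ± 19.6 CPM in dormant cells (log2 fold change -1.43 ± 0.05 SE, adjusted p = 2.51e-12), and asparagine synthetase ASNS 13.9 ± 1.59 CPM in activated and 215 ± 4.53 CPM in dormant cells (log2 fold change -3.95 ± 0.07 SE, adjusted p = 7.90e-15). ASNS fell by 3.95 on the log2 scale, further than any ATF4-target transporter.

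**Figure D4:**
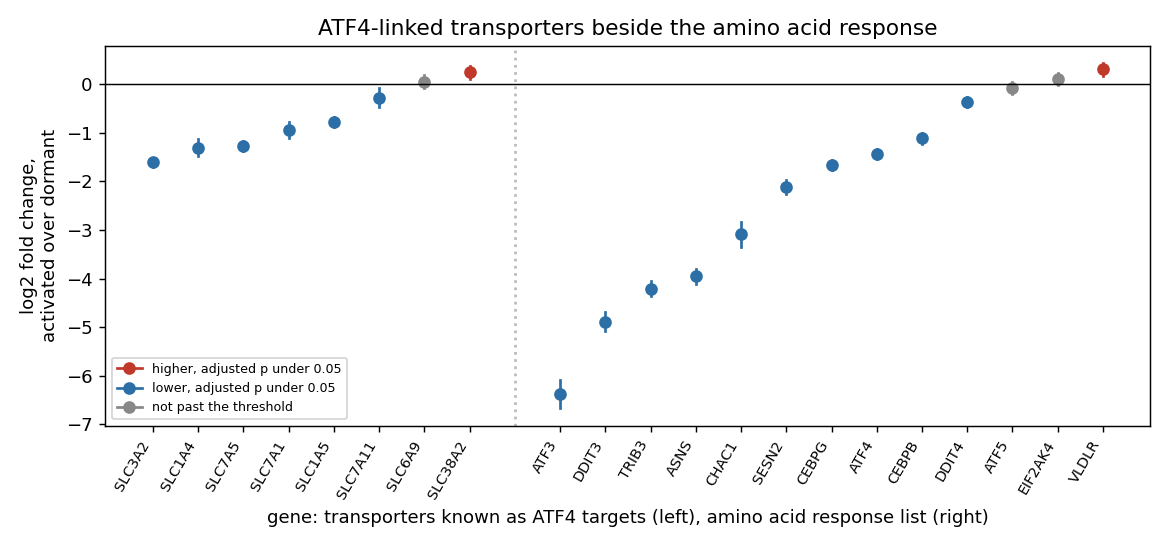
Log2 fold changes, activated over dormant (y axis), with 95% intervals, of the 8 tested transporters known as ATF4 targets (left of the dotted line) and the 13 genes of the amino acid response list (right). Blue points fell, red rose and grey did not pass at an adjusted p under 0.05; the transporters lie between -1.61 and 0.25, the response list reaches -6.38, and SLC38A2 no longer passed with total counts.

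Promoter windows were searched for TGATGNAA, the core of the C/EBP-ATF response element that ATF4 binds, on both strands, with TTNCATCA as its reverse. RefSeq windows were found for 45 members, 27 of them tested. The core was in 5 of 12 members that fell and had a window, in 0 of 9 that rose and in 0 of 6 that did not pass. It was in 2.88% of all tested genes with a window, whatever their direction, and 4.46% of all symbols. The share among all genes that fell was not taken, and the split by direction was not tested. The 5 matches are printed beside that of ASNS, a textbook target, from RefSeq on GRCh38.p14, 5′ to 3′ on the strand of the gene, with the match in capitals:
SLC3A2: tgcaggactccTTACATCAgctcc
SLC1A4: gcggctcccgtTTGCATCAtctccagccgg
SLC38A1: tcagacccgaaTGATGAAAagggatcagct
SLC7A1: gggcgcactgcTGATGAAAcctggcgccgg
SLC1A5: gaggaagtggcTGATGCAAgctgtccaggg
ASNS: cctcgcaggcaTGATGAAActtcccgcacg
SLC3A2 (chr11:62881725-62881748, plus strand) and SLC7A1 (chr13:29595663-29595692, minus strand) have the match just after an annotated start. In SLC1A4 (chr2:64989381-64989410, plus strand) it begins 7 bases before a start, and in SLC38A1 (chr12:46266502-46266531, minus strand) 4 bases before. The match of SLC1A5 (chr19:46784893-46784922, minus strand) lies 97 bases before an alternative start, and that of ASNS (chr7:97872458-97872487, minus strand) 68 bases before. SLC38A1, SLC7A1 and ASNS share the letters TGATGAAA. Of all 45 members with a window 6 held the core, the untested SLC1A3 being the other one. SLC3A2, SLC1A4, SLC7A1 and SLC1A5 were already listed as known ATF4 targets, so their matches are not independent of that list. SLC38A1 was not among the listed ATF4 targets. SLC7A5 had a window without a match, and SLC7A11, SLC6A9 and SLC38A2 had no match or no window here. This says only that the letters were not found in what was searched.

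Carriers of amino acids outside the 7 families were read from a list of 13 genes, of which 7 were tested. Of these 5 fell, 1 rose and 1 did not pass (median log2 fold change -0.59), where 37.2% of all genes fell and 36.5% rose, with a median of -0.02. SLC17A7, a vesicular glutamate carrier, had 0.877 ± 0.162 CPM in activated and 2.35 ± 0.166 CPM in dormant cells (log2 fold change -1.42 ± 0.30 SE, adjusted p = 0.000585). SLC17A5, the lysosomal sialic acid carrier, had 23.9 ± 1.28 CPM in activated and 58.5 ± 3.75 CPM in dormant cells (log2 fold change -1.29 ± 0.07 SE, adjusted p = 3.43e-10). SLC15A4, a lysosomal histidine and peptide carrier, rose (log2 fold change 0.21 ± 0.07 SE, adjusted p = 0.0103), but not with total counts (0.07, adjusted p = 0.350). Named outside the rule, the lysosomal cystine exporter CTNS had 32.04 ± 1.75 CPM in activated and 61.6 ± 1.48 CPM in dormant cells (log2 fold change -0.94 ± 0.06 SE, adjusted p = 2.93e-09), and SLC66A1, which exports cationic amino acids from lysosomes, 30.1 ± 0.129 CPM in activated and 45.3 ± 0.0538 CPM in dormant cells (log2 fold change -0.59 ± 0.06 SE, adjusted p = 4.00e-07).

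Genes of lysosomal amino acid sensing pass the signal to mTORC1. Of 31 tested, 11 rose, 9 fell and 11 did not pass (median log2 fold change 0.07), where 73.7% of all genes were called, 36.5% higher and 37.2% lower, so nothing is read from these counts. With total counts 11 rose and 12 fell (median -0.07). SESN3, of the sestrin family that restrains mTORC1, had 2.45 ± 0.470 CPM in activated and 0.742 ± 0.0866 CPM in dormant cells (log2 fold change 1.72 ± 0.31 SE, adjusted p = 0.000149). Named outside the rule, the more abundant sestrin SESN2, of the amino acid response list, went the other way. It had 17.2 ± 0.965 CPM in activated and 74.8 ± 3.85 CPM in dormant cells (log2 fold change -2.12 ± 0.07 SE, adjusted p = 1.25e-12). SESN1 did not pass (log2 fold change -0.13 ± 0.13 SE, adjusted p = 0.381). NPRL3, a subunit of the inhibitory GATOR1 complex, had 50.3 ± 1.78 CPM in activated and 27.2 ± 1.55 CPM in dormant cells (log2 fold change 0.89 ± 0.07 SE, adjusted p = 1.35e-08). The largest fall was of the GTPase RRAGD, with 22.7 ± 2.10 CPM in activated and 96.1 ± 2.13 CPM in dormant cells (log2 fold change -2.08 ± 0.07 SE, adjusted p = 1.51e-12). Named outside the rule, RRAGC fell by 2.07 and FLCN, which acts on both GTPases, by 1.81 on the log2 scale.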

How the data were processed

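Total RNA of A549 cells was extracted with TRIzol and sequenced from VAHTS Universal V6 libraries, per the labels' protocols. The authors deposited whole-number counts per gene symbol, which were used as deposited. The FPKM deposited by the authors equal those counts divided by gene length and by the count table's total. The tools were fastp, HISAT2 and HTSeq on GRCh38, per the submitters' processing notes. Their versions, the annotation and any use of strand were not given in the sources used here.

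Differences were tested in R 4.3.3 with edgeR 4.0.16 (quasi-likelihood F test, TMM factors, filterByExpr filter), with Benjamini-Hochberg adjustment over all 13336 genes tested, at an adjusted p of 0.05. CPM were scaled by TMM. Standard errors were derived from F, as the absolute log2 fold change over its square root. Ratios and shares of FPKM were compared with exact permutation tests (scipy 1.17.1). The procedure was tested on simulated data. Intervals of count ratios are exact binomial 95% intervals and cover counting error only.

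The members and lists were chosen with earlier results of these data known. Values in every library were given for members past the threshold with at least a 2-fold change and a mean of at least 1 CPM in a group, and for 14 set members. Of the other lists, the rule named the 2 largest changes in the majority direction and the largest in the other. Genes outside it are marked, and 1 untested member is not reported here. Alternatives were DESeq2 1.42.0, its size factors, total counts, limma voom (limma 3.58.1), no filter, at least 1 CPM in at least 3 libraries, a replicate block, leaving out each library, log2(FPKM + 1) or log2(FPKM + 0.1) in limma at a mean FPKM of at least 0.5, log2(FPKM + 1) without a filter, and a gene length correction (loess, span 0.3). Running them on the other lists and on the ratio of SLC38A1 to SLC38A2 was added after the data were seen. Exon overlaps are from GENCODE v29 and coordinates from RefSeq on GRCh38.p14. Chi-square values per degree of freedom between replicates were 7.26 to 21.8 in the activated and 4.82 to 9.94 in the dormant group, beyond sampling noise, so each library counted once.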

Additional observations from a re-analysis of the deposited data

How the results depend on the processing

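The number of members called, 25, was 21 to 25 under the other settings and 23 to 25 when 1 library was left out, and all genes called were 9109 to 10009. Of 417 values of called members, 400 kept their direction and call, 13 lost the call and 4, all of SLC7A6, turned sign. The ratios, shares and summed FPKM kept their direction in every alternative run. With the replicate number as a block, 24 members and 9789 genes were called, SLC7A6 being lost (adjusted p = 0.0541). Same-numbered libraries had deviations correlated at -0.015, 0.019 and -0.0056 and were not treated as pairs. Signs turned for members near 0, and the cause was not tested beyond the -0.14 shift that total-count scaling gives. With total counts, log2(FPKM + 1), log2(FPKM + 0.1) and unfiltered log2(FPKM + 1), in that order, SLC43A2 was at -0.061, -0.034, -0.050 and -0.034, SLC6A8 at -0.11, -0.096, -0.12 and -0.096, SLC6A9 at -0.081, -0.076, -0.081 and -0.076, SLC7A6 at -0.017, -0.015, -0.016 and -0.015, and SLC7A7 at -0.13, -0.10, -0.16 and -0.10. SLC7A7 was also at -0.024 with voom, -0.017 with the block and -0.085 after the length correction, which put SLC7A2 at 0.080. Leaving out 1 library gave -0.037 to 0.17 for SLC43A2, -0.21 to 0.041 for SLC6A17, -0.10 to 0.12 for SLC6A8, -0.14 to 0.048 for SLC7A2, and -0.18 to 0.24 for SLC7A7. SLC38A9 was called lower with total counts and with FPKM (adjusted p = 0.00483 to 0.00750), and SLC38A2 lost its call there (adjusted p = 0.115 to 0.237). With FPKM + 1, log2 fold changes of low genes shrank, to 1.77 for SLC6A14. Depth limited SLC6A13, SLC6A3 and the dormant level of SLC6A14.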

Other observations

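Genes that make or use cysteine and glutathione were read beside SLC7A11, which brings in cystine. Of 9 tested, 3 rose, 4 fell and 2 did not pass in edgeR's quasi-likelihood test, with a median log2 fold change of -0.11; with total counts 2 rose and 4 fell. Of all genes 73.7% were called, 36.5% higher and 37.2% lower, so nothing is read from these counts. CHAC1, which degrades glutathione and is also in the amino acid response list, had 2.92 ± 0.396 CPM in activated and 24.98 ± 1.65 CPM in dormant cells (log2 fold change -3.09 ± 0.12 SE, adjusted p = 1.20e-11). CBS, which makes cystathionine from homocysteine and serine, had 2.45 ± 0.408 CPM in activated and 10.97 ± 0.641 CPM in dormant cells (log2 fold change -2.16 ± 0.16 SE, adjusted p = 1.34e-08). GGT1, which splits extracellular glutathione, rose (log2 fold change 0.29 ± 0.05 SE, adjusted p = 0.000176). Named after their values were seen, the subunits of glutamate cysteine ligase differed in direction. The catalytic subunit GCLC had 58.9 ± 4.74 CPM in activated and 205 ± 6.003 CPM in dormant cells (log2 fold change -1.80 ± 0.06 SE, adjusted p = 1.98e-12), and the modifier subunit GCLM 103 ± 2.35 CPM in activated and 84.4 ± 2.27 CPM in dormant cells (log2 fold change 0.29 ± 0.05 SE, adjusted p = 0.000124).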
